A study of Mus musculus with 2 samples.

Results

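The hepatocyte members were 1394 barcodes, 1106 in the hKO library and 288 in the WT library, of 32946 barcodes in all (18657 in hKO and 14289 in WT). A barcode, which stands for 1 droplet and usually 1 cell, was a member when it had at least 500 unique molecular identifiers (UMIs, each counting 1 captured transcript), at least 200 genes and at most 25% of its UMIs in mitochondrial genes. At least 4% of its non-mitochondrial UMIs also had to lie in 12 abundant hepatocyte genes (Alb, Apoa1, Apoa2, Apoc1, Apoc3, Ttr, Fgb, Trf, Serpina1c, Serpina3k, Mup20 and Hp). At most 3 UMIs of C1qa, C1qb and C1qc, at most 1 UMI of Cd3d, Cd3e and Cd3g, and under 20% hemoglobin UMIs were allowed. The members were chosen by these measured values, so levels of the 12 genes, mitochondrial shares and the number of members are given as descriptions.

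Both libraries came from liver tumors of C57BL/6J littermates and were made with the 10x Genomics 3′ kit, version 2. The hKO group were mice with a hepatocyte knockout of Fabp5, driven by the tamoxifen-activated Alb-CRE-ER, and the WT group were wild-type mice. Whether WT mice carried the Cre transgene is not stated in the labels. Mice of both groups received tamoxifen at an age of 6 to 8 weeks (100 mg/kg, 5 injections 3 days apart, each after a 16 h fast) and, from 2 weeks after the last injection, a CD-HFD for 15 months, and the tumors were dissociated in collagenase (37 °C, 1 h) before straining through a 40 µm mesh. Each library pooled 2 to 3 hepatocellular carcinomas, so there was 1 library per group, no difference could be tested, and every interval below is a 95% interval for counting error only. The tumors within a pool cannot be told apart, and Alb, whose promoter drives the recombinase, is active in hepatocytes.

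Hepatocytes make albumin, clotting factors, lipoproteins and acute phase proteins, take up and burn fatty acids, form bile acids and urea, and clear drugs and steroids through cytochromes P450 and conjugating enzymes. They differ along the liver lobule, and mouse hepatocytes also differ by sex under the control of growth hormone. FABP5 is a cytoplasmic fatty acid binding protein best known from skin and macrophages, while FABP1 is the abundant family member of normal hepatocytes.

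The members held 3442452 UMIs in hKO and 2053941 UMIs in WT, at medians of 1474.5 and 1465 UMIs per barcode and 559 and 607.5 genes. They made up 9.66% of the hKO barcodes within the UMI, gene and mitochondrial limits (1106 of 11451; exact Clopper-Pearson interval 9.12 to 10.2) and 2.92% of those in WT (288 of 9853; 2.60 to 3.27), a log2 ratio of 1.72 (1.54 to 1.92). This ratio followed the limits: it was 0.063 at a mitochondrial limit of 10% and 0.53 at a minimum of 5000 UMIs. Most hepatocyte barcodes lay above the mitochondrial limit, 4458 in hKO and 390 in WT, or 80.1% and 57.5% of all barcodes that met the other criteria. Of the barcode sequences, 73 occurred in both libraries, and none of them was a member in both. Over the barcodes within limits, Xist had 8 UMIs in hKO and 7 in WT, against 5523 and 5592 UMIs of the Y-linked Ddx3y.

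Of the 5 markers of the label, Alb, Apoa1, Ttr and Fgb are genes of the rule, so their presence was fixed by it, and Hnf4a alone can check the label. Over the members, Alb, which encodes serum albumin, had 119670 UMIs in hKO and 55827 in WT, and the apolipoprotein gene Apoa1 had 15961 and 58730. Ttr, the thyroxine carrier transthyretin, had 53970 UMIs in hKO and 6271 in WT, and the fibrinogen chain Fgb had 11391 and 12551. Hnf4a, a transcription factor that maintains hepatocyte identity, was not among the 12 genes, and its 304 UMIs in hKO and 800 in WT were 88.3 and 389.5 CPM (UMIs of the gene per 1e+06 UMIs), against 6.39 and 18.7 CPM over the other barcodes within the same limits. In barcodes with at least 2 Cd3 UMIs, no C1q UMI and under 1% hepatocyte-gene UMIs, taken as T cells, Hnf4a was seen in 2.01% of 447 hKO and 1.26% of 795 WT barcodes (median depths 4240 and 4144 UMIs), against 14.3% of hKO and 36.1% of WT members. The 12 hepatocyte genes were 0.490% of the non-mitochondrial UMIs of those T barcodes in hKO and 0.183% in WT. The selection at under 1% caps these shares, so T barcodes can understate the background. Whether free RNA brought these UMIs there was not tested.

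The library sums are set by depth. In 5 classes of rising depth, which start at 500, 1000, 2000, 5000 and 10000 UMIs, the hKO library had 352, 354, 276, 77 and 47 members and the WT library had 102, 74, 37, 23 and 52. The deepest class held 37.8% of the member UMIs in hKO and 77.7% in WT. The deepest WT barcodes therefore weigh most in each WT sum, and ratios within depth classes are given beside the sums. Median mitochondrial shares across these classes, from shallow to deep, were 21.5%, 19.4%, 17.2%, 13.0% and 9.81% in hKO, and 18.7%, 12.4%, 6.87%, 3.20% and 3.51% in WT. The mitochondrial share was thus higher in hKO than in WT in each class, while the median share of the 12 hepatocyte genes was higher in hKO in the 4 classes under 10000 UMIs (14.6% to 18.7% in hKO, 7.50% to 9.95% in WT) and 7.60% in hKO against 8.11% in WT in the deepest. Just inside the hepatocyte-gene limit, at 4% to 5%, lay 142 hKO and 47 WT members, and just outside it, at 3% to 4%, 224 hKO and 80 WT barcodes. At the mitochondrial limit, 110 hKO and 11 WT members had 24% to 25%, and 110 hKO and 15 WT barcodes had 25% to 26%.

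**Figure D1:**
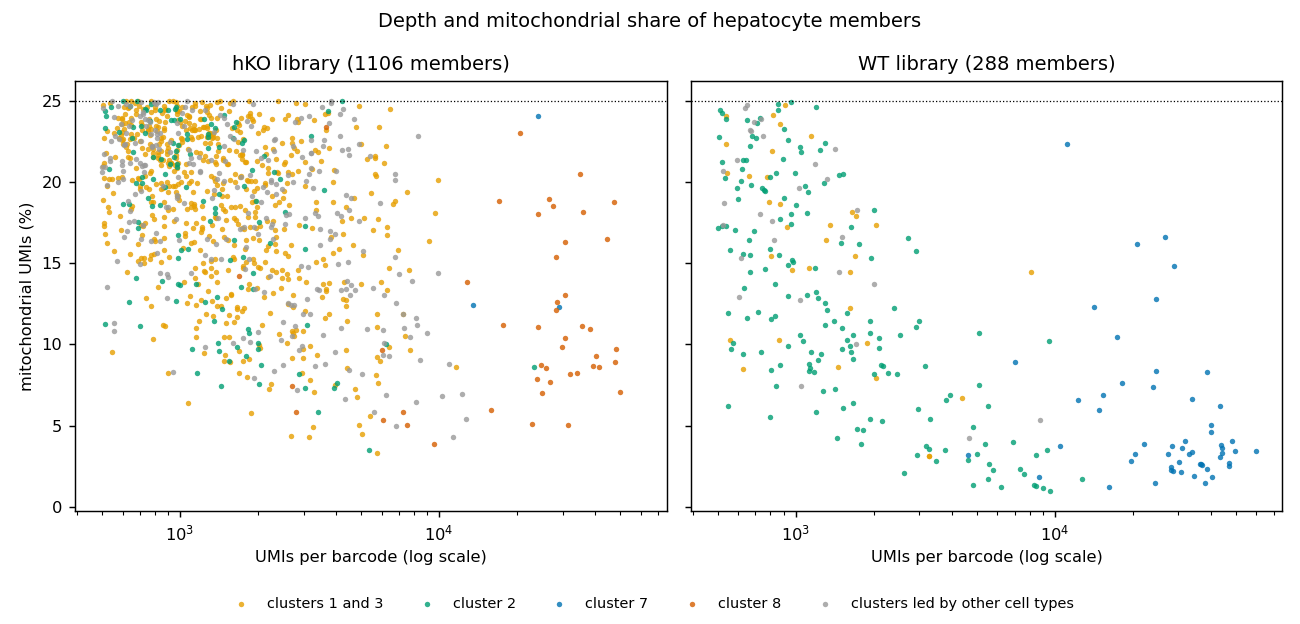
Mitochondrial share of UMIs (y axis, %) against UMIs per barcode (x axis, log scale) for the 1106 hKO members (left) and the 288 WT members (right), 1 point per barcode, coloured by cluster, with the 25% limit dotted. The hKO members crowd under the limit at low depth, and the deepest barcodes are cluster 8 in hKO and cluster 7 in WT.

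Clustered together, the members formed 10 clusters, and few of them were shared. Cluster 2 was the only cluster with at least 100 members from each library (130 hKO, 171 WT) and is called the shared cluster here. Its leading genes over both libraries included Agxt (glyoxylate detoxification), Rgn (a lactonase) and Uox (urate oxidase), which the WT members carried more: Agxt stood at 37.7 CPM in hKO and 456.1 CPM in WT, and Rgn at 70.8 and 453.3 CPM. Its members were shallow in both libraries (medians 1157.5 UMIs in hKO and 1199 in WT), and erythroid markers, mostly hemoglobin genes, summed to 514.2 CPM in its hKO members and 5334 CPM in its WT members. Cluster 1 (381 hKO, 33 WT) was led by Cyp2a5, Apoa4, Cyp2d9 and Cyp3a11, and cluster 3 (257 hKO, 1 WT) by Ces3a, Ugt2b1, Mup20 and Ugt3a2. The deep barcodes split by library: cluster 8 (46 hKO, 0 WT) was led by Gstp2, Ccl20, Ubd and Hamp, and cluster 7 (3 hKO, 54 WT) by Thsd4, Igfbp1, Tspan8 and Cdkn2a. Each group is 1 library, so clusters with members from hKO or WT alone may be that library and not a kind of hepatocyte.

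The remaining clusters were led by genes of other cell types, so the data go against the hepatocyte label for 289 hKO members (26.1%) and 29 WT members (10.1%). Cluster 4 (112 hKO, 9 WT) was led by macrophage genes such as C1qb and Cd5l, cluster 5 (79 hKO, 3 WT) by B cell genes such as Ebf1, Pax5 and Cd79a, cluster 6 (64 hKO, 7 WT) by neutrophil genes such as S100a8 and S100a9, cluster 9 (22 hKO, 10 WT) by endothelial genes such as Ptprb, and cluster 10 (12 hKO, 0 WT) by plasmacytoid dendritic cell genes such as Siglech. Clusters 5 and 6 were mixed. Cluster 5 also had 3 of 4 natural killer (NK) and 3 of 7 T cell markers raised over the other clusters. NK and B cell markers summed to 515.5 and 2370 CPM in its hKO members and to 6156 and 2339 CPM in its 3 WT members. In cluster 6, 4 of 4 conventional dendritic cell and 4 of 8 macrophage markers were raised too. The barcodes of all clusters led by other cell types stayed in the sums because the rule holds them, and results without them (817 hKO and 259 WT members) stand beside the sums. Over all members the 8 endothelial markers summed to 142.6 CPM in hKO and 54.0 in WT, with 8 of 8 detected in each library. The 5 erythroid markers summed to 523.2 CPM in hKO and 3481 in WT, with a UMI in 52.7% of hKO and 99.3% of WT members, and the 4 plasmacytoid dendritic cell markers to 92.7 and 4.87 CPM. The 8 macrophage markers summed to 253.3 and 103.7 CPM, with 7 of 8 detected and Marco at 0 in both libraries. The 5 B cell markers summed to 1319 CPM in hKO and 5297 in WT, but 4138 of 4541 UMIs in hKO and 10860 of 10879 in WT were Ly6d. The 8 cholangiocyte markers summed to 800.3 and 2760 CPM, with 5 of 8 detected; Krt7 was at 0 in both libraries, Krt19 had 0 and 1 UMIs, and 2629 of 2755 UMIs in hKO and 5542 of 5668 in WT were Spp1. Summed over the 13 lists of other cell types without Ly6d, Spp1 and Sox9, the level was 491.5 CPM in the deepest hKO class and 2086 to 2311 CPM in the other hKO classes. In WT it was 3242 CPM in the deepest class and 2788 to 9621 CPM in the others. These sums include the erythroid list, which alone was 523.2 CPM in hKO and 3481 in WT over all members. The endothelial, macrophage and plasmacytoid dendritic cell lists were higher in hKO, as given above. The higher WT sums therefore do not show that WT members held more RNA of each other cell type. Part of each gene difference below may follow these markers, which was not tested.

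Clusters of 1 name did not hold 1 profile. In cluster 1 the 12 hepatocyte genes summed to 20.6% of UMIs over its 381 hKO members and 32.7% over its 33 WT members. There Alb stood at 67885 CPM in hKO and 146900 in WT, Apoa1 at 8602 and 85586 CPM, and Ttr at 31271 and 15373 CPM. The coumarin hydroxylase Cyp2a5 stood at 7572 CPM in hKO and 112.4 in WT, and the trefoil peptide Tff3 at 2948 and 67.4 CPM. Deep clusters differed in a like way: Apoa1 was at 3822 CPM in hKO cluster 8 and 30699 CPM in WT cluster 7, Ttr at 9688 and 2188 CPM, and Hnf4a at 137.8 and 458.7 CPM. The cyclin-dependent kinase inhibitor gene Cdkn2a was at 0 UMIs in hKO cluster 8 and at 415.1 CPM in WT cluster 7.

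**Figure D2:**
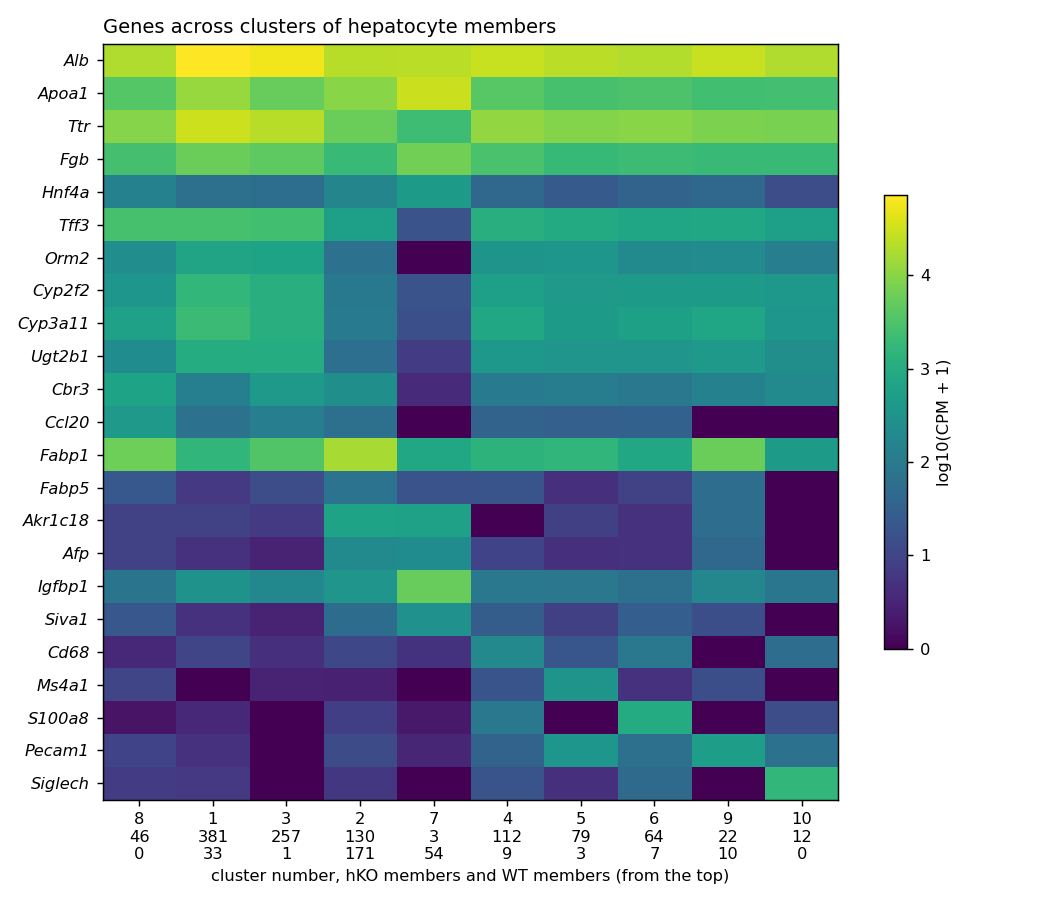
Level of 23 genes (rows) in the 10 clusters (columns) as log10(CPM + 1) of UMIs summed over both libraries, with the number of hKO and of WT members under each cluster number. Levels follow the library that fills a cluster: Tff3, Orm2, Cyp2f2 and Cyp3a11 are higher in clusters 8, 1 and 3, which hold mostly hKO members, than in clusters 2 and 7, which hold more WT than hKO members and where Akr1c18 and Afp are highest, and each of the last 5 rows peaks in a cluster led by another cell type.

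Fabp5, the targeted gene, was lower in the hKO members over the summed UMIs. It had 45 UMIs in hKO, or 13.1 CPM (exact Poisson interval 9.53 to 17.5), and 66 UMIs in WT, or 32.1 CPM (24.9 to 40.9), a log2 ratio of −1.30 (−1.88 to −0.73). Both levels lay under the floor of 50 CPM used for all genes below, and 10 members held 53.3% of the hKO and 43.9% of the WT UMIs. The ratio was −3.05 with each barcode weighted equally, and 0.027 among the 602 hKO and 53 WT members with markers of other cell types, Ly6d, Spp1 and Sox9 aside, at most 0.1% of UMIs. Those markers include hemoglobin genes, and an erythroid marker UMI was seen in 52.7% of hKO and 99.3% of WT members. How many barcodes this limit left out for hemoglobin RNA alone was not tested. From shallow to deep, the classes held 1, 7, 8, 4 and 25 Fabp5 UMIs in hKO and 8, 6, 8, 18 and 26 in WT, with log2 ratios of −4.84, −2.08, −2.92, −3.78 and 0.24. The 4 classes under 10000 UMIs were lower in hKO, and the interval of the deepest class reached from −0.61 to 1.09. The shared cluster held 28.3 CPM in hKO (10.4 to 61.6) and 92.3 CPM in WT (63.6 to 129.7), a log2 ratio of −1.71 (−3.25 to −0.43). All other clusters together held 12.1 and 19.5 CPM (log2 −0.69, −1.39 to 0.03).

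Few hKO members had a Fabp5 UMI. With each barcode thinned to 1000 UMIs, 0.928% of hKO members (7 of 754; 0.374 to 1.90) and 3.76% of WT members (7 of 186; 1.53 to 7.60) had a Fabp5 UMI, and 352 hKO and 102 WT members were too shallow to enter. In T barcodes thinned the same way the share was 0.901% in hKO (4 of 444; 0.246 to 2.29) and 0.126% in WT (1 of 793; 0.00319 to 0.701). The thinned share of hKO members was thus within the interval of that of hKO T barcodes. Unthinned, 2.80% of hKO and 16.0% of WT members had one, against 1.34% of hKO and 1.64% of WT T barcodes, which are deeper. The level in T barcodes was 7.79 CPM in hKO (4.54 to 12.5) and 4.63 CPM in WT (2.79 to 7.23), so the summed levels of the members and of the shared cluster in hKO lay above it, and how much of them is free RNA was not tested. The labels do not name the deleted exons, and reads of a 3′ kit that fall outside them say nothing about the deletion.

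The other fatty acid binding proteins did not follow 1 direction across depth. Fabp1, the main fatty acid binding protein of the liver, had 13309 UMIs in hKO and 9248 in WT, a log2 ratio of −0.22 over all members. From shallow to deep it stood at 3240, 3581, 2301, 1812 and 5937 CPM in hKO and at 13344, 15669, 18071, 19217 and 873.6 CPM in WT. It was lower in hKO in the 4 classes under 10000 UMIs (log2 −2.04, −2.13, −2.97 and −3.41) and higher in the deepest (2.76, interval 2.68 to 2.85). Fabp2, the intestinal form, had the same order of signs, with log2 ratios of −2.07, −2.83, −3.45, −3.66 and 1.86. Deep WT barcodes were thus low in Fabp1 and Fabp2 while shallower WT barcodes were high, and the sums of 908 and 716 Fabp2 UMIs (log2 −0.40) hide this. Fabp4, known from adipocytes, macrophages and capillaries, had 854 UMIs in hKO and 79 in WT (log2 2.69), with ratios of 0.08 to 4.68 across the classes; 10 members held 54.4% of its hKO and 70.9% of its WT UMIs, and it was also seen in 12.1% of hKO and 26.5% of WT T barcodes. Among hepatocyte barcodes above the mitochondrial limit its log2 ratio was −0.63. Fabp7 had 13 UMIs in hKO and 12 in WT, Fabp3 1 and 0, Fabp12 3 and 0, and Fabp6 and Fabp9 0 in both. A count of 0 does not show absence, and the floor used for it was 3 UMIs per library.

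Over all genes, many more were lower in hKO than higher. The rule of size asked for 50 CPM or more in hKO or WT, a log2 ratio of 1 or beyond in either direction, and an interval not reaching 0. Of 3520 genes at the floor, 457 were higher in hKO (13.0%) and 1149 lower (32.6%), and the median log2 ratio of all of them was −0.63. Higher genes were 28.5% of those past the rule. That split moved with the scaling: it was 42.0% (754 higher, 1041 lower) with mitochondrial, ribosomal-protein, hemoglobin and rule genes left out of the total. It was 44.9% (597 higher, 734 lower) with ratios shifted by 0.34, the size of the median shift over the 1864 genes at the floor in both libraries. A list is therefore read against the median of −0.63 and the shares of 13.0% and 32.6%.

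The counts differed less between directions in the shared cluster, while those of the deepest class stayed close to those of all members. In the deepest class 13.5% of 3700 genes were higher and 30.5% lower, with a median of −0.46. In the shared cluster 15.1% of 2944 genes were higher and 17.2% lower, with a median of −0.17. That cluster was formed by likeness of expression in these same data. It held only 211996 UMIs in hKO and 357361 in WT, so its smaller split is a description. Of the 457 genes higher over all members, 247 were also higher among deep members (54.0% of the 457 and 49.6% of those higher there) and 204 in the shared cluster (44.6% and 45.7%), while 2 were lower there. Of the 1149 lower genes, 785 were also lower among deep members (68.3% and 69.6%) and 308 in the shared cluster (26.8% and 60.9%), while 12 were higher there. Without the clusters led by other cell types 11.8% of 3429 genes were higher and 41.5% lower. The 24 genes named next were taken from those that kept their direction in each of the 5 depth classes, which 664 genes did after families of abundant and numbered genes and genes more abundant outside the members were left out (223 higher, 441 lower). Of 1535 genes past the rule of size outside those families, 807 kept their direction in each class, and a class without a ratio counted against a gene. For some of the other genes, named in the gene lists further on, the sign of the ratio differed between depth classes. They were Baat, Bhmt, Btg2, Cd44, Cps1, Cyp2c68, Cyp2e1, Dpys, Gsta2, Gstm3, Hspa1b, Ly6d, Mdm2, Rgn and Spp1. Lpin2, Fads2, Pcx, Nlrc5 and Cxcl10, named with the alternative settings, also changed sign. In these ratios a count of 0 UMIs was set to 3 UMIs. Where hKO members held more UMIs in all, this can turn the sign for a gene seen in hKO alone. In the shallowest class Mdm2 had 4 UMIs in hKO and 0 in WT, yet a log2 ratio of −1.42. Hspa1b was at −0.10 there and positive in the other classes, so its change of sign may reflect this setting alone. Asking for the same direction in each class could thus leave out genes higher in hKO.

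The 12 named genes with the largest ratios were mostly enzymes of detoxification and secreted proteins, and WT members held 40 UMIs or fewer of each. Ces3a, a carboxylesterase, had 1165 UMIs in hKO and 2 in WT, or 338.4 and 0.974 CPM (log2 8.44, 6.58 to 11.5). Wfdc2, a secreted protein with protease inhibitor domains, had 1106 and 2 UMIs (log2 8.37). Tff3, a secreted mucosal repair peptide, had 7696 UMIs in hKO and 40 in WT, or 2236 and 19.5 CPM (log2 6.84, 6.40 to 7.33). Across depth Tff3 varied little in hKO, at 1639, 1922, 2006, 2252 and 2624 CPM from shallow to deep, while the WT classes ranged from 11.3 to 67.2 CPM. Across clusters the hKO level ranged from 149.6 CPM in the 3 members of cluster 7 to 2948 CPM in cluster 1. After thinning, 543 of 754 hKO members and 10 of 186 WT members (5.38%) had a Tff3 UMI. In T barcodes it was 9.01% in hKO and 0 of 793 in WT, with an upper limit of 0.464%.

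The fatty acid hydroxylase Cyp4a12a, a male-dominant gene of mouse liver, had 850 UMIs in hKO and 0 in WT. With WT set to a floor of 3 UMIs it was 169-fold higher in hKO (log2 7.40, lower limit 7.1). Ccl20, the chemokine ligand of CCR6, had 680 UMIs in hKO and 0 in WT, 135-fold higher with the same floor (log2 7.08, lower limit 6.78), but 10 members held 78.8% of its hKO UMIs. The carboxylesterase Ces1g (log2 7.31), the P450 enzymes Cyp2c29 (6.87) and Cyp4a10 (6.55), the glucuronosyltransferase Ugt2b1 (6.57), the glutathione-cleaving Ggt1 (6.82) and the tektin gene Tekt5 (7.72) complete the higher genes with Orm2, described with the acute phase genes. These 12 genes reached 0.458 to 78.8 CPM in hKO T barcodes and 0 to 2.19 CPM in WT ones. All 12 were also higher in hKO in the shared cluster, at log2 ratios of 1.98 to 5.15, and above the mitochondrial limit, at 2.89 to 7.52. In both settings a WT count of 0 was set to 3 UMIs, as for Ggt1 (7 and 0 UMIs) and Cyp4a10 (8 and 0) in the shared cluster. These genes were chosen over members that include the shared cluster, so their direction there is no separate check. Reads of near-identical families (Ugt2b, Cyp2c, Cyp4a, Cyp2d, Mup, Saa, Gsta, Akr1c and Hspa1 genes) can be split among their members, so single values in these families are uncertain.

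The 12 genes with the lowest ratios included tumor and fetal genes. Akr1c18, a hydroxysteroid dehydrogenase that inactivates progesterone, had 10 UMIs in hKO and 1382 in WT, or 2.90 and 672.9 CPM (log2 −7.86, −8.92 to −6.97). Its WT level was 625.1, 701.3, 929.2, 997.5 and 621.2 CPM from shallow to deep, while hKO had 0, 0, 1, 0 and 9 UMIs. WT thus held the gene at every depth, and thinned shares were 0.133% of hKO and 45.2% of WT members, against 0 of 444 hKO and 0.631% of WT T barcodes. Igfbp1, a secreted binder of insulin-like growth factors, had 439 UMIs in hKO and 9188 in WT, or 127.5 and 4473 CPM (log2 −5.13, −5.27 to −4.99). Its ratio was −2.16, −1.20, −2.03 and −2.95 in the classes under 10000 UMIs and −6.37 in the deepest, where cluster 7 lies.

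Kif5c, a kinesin heavy chain, had 3 UMIs in hKO and 410 in WT (log2 −7.84), although the shared cluster held only 0 and 16 and T barcodes held 28.4 CPM in hKO and 21.2 in WT, above the hKO members. Id1, a target of BMP signaling, had 32 and 478 UMIs (log2 −4.65), and Nrn1, a membrane-anchored neuritin, had 203 and 2592 (−4.42). Siva1, linked to apoptosis, was at −4.22, the glyoxylate-detoxifying Agxt at −4.01, the carbonyl reductase Dcxr at −4.00, the tetraspanin Tspan8 at −3.93 and Erich4 at −3.90. Tspan8 rested on the deep members: it was at −0.01 in the shared cluster, with 20 UMIs in hKO and 34 in WT. The other 11 genes lay between −6.19 and −1.57 in the shared cluster, with an hKO count of 0 set to 3 UMIs. All 12 were lower in hKO above the mitochondrial limit (−8.12 to −1.66). They too were chosen over members that include the shared cluster.

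**Figure D3:**
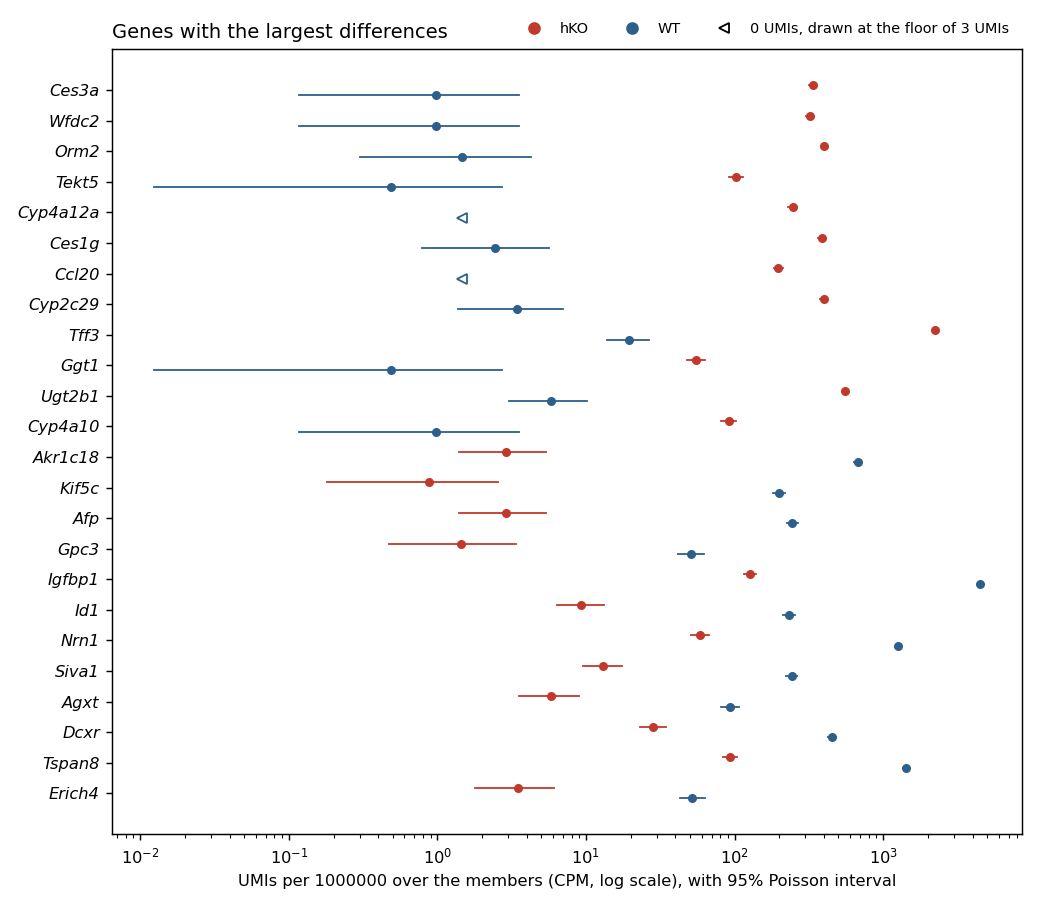
Summed level (x axis, CPM, log scale) of the 12 named genes with the highest and the 12 with the lowest log2 ratio (rows) in hKO (red) and WT (blue), 1 point per library with its 95% Poisson interval; open triangles stand for 0 UMIs and are drawn at 3 UMIs. The red points of the upper 12 rows lie between 55.2 and 2236 CPM and the blue points of the lower 12 rows between 51.1 and 4473 CPM, and no interval of 1 library reaches the point of the other.

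**Figure D4:**
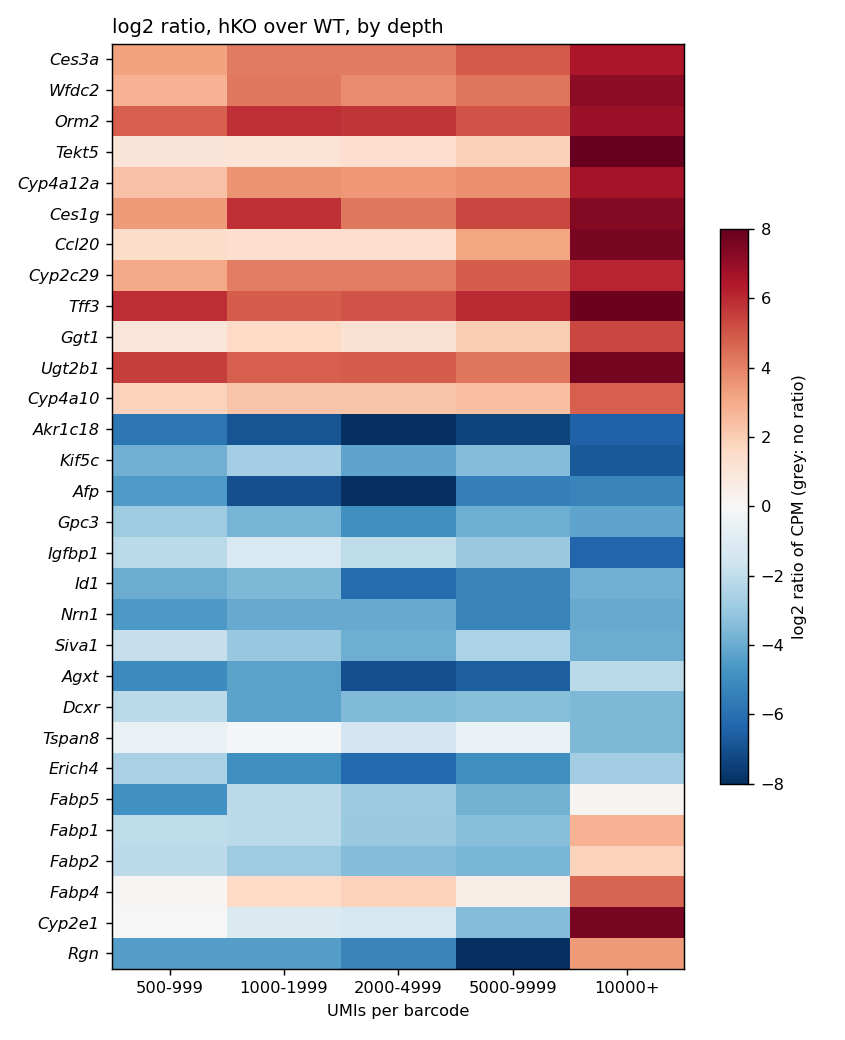
Log2 ratio of CPM, hKO over WT (colour), of the 24 named genes, Fabp5, Fabp1, Fabp2, Fabp4, Cyp2e1 and Rgn (rows) in 5 classes of UMIs per barcode (columns); where a library had 0 UMIs the colour is drawn from the floor of 3 UMIs. The 24 named genes keep 1 colour by rule, while Fabp1, Fabp2 and Rgn are blue in the 4 shallower classes and red in the deepest.

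Afp, the fetal counterpart of albumin and a serum marker of liver cancer, had 10 UMIs in hKO and 504 in WT, or 2.90 and 245.4 CPM (log2 −6.40, −7.47 to −5.51). It was present at every depth in WT, at 258.2, 259.4, 327.4, 258.4 and 236.7 CPM from shallow to deep, against 0, 1, 1, 0 and 8 UMIs in hKO. Thinned shares with an Afp UMI were 0.398% of hKO and 18.3% of WT members, against 0.225% of hKO and 0.126% of WT T barcodes. Alb, its neighbor on chromosome 5, had a log2 ratio of 0.35 over all members and of −0.36 to 0.52 across the depth classes. Alb is a gene of the rule, so its level is partly fixed by it. The promoters are shown to set the fetal and the adult member of this adjacent pair side by side. They are the 250 bases before and 50 after the start of each gene, from RefSeq on GRCm38.p6, on the plus strand at chr5:90460620-90460919 for Alb and chr5:90490464-90490763 for Afp. Capitals mark GTTAAT, part of the site of the liver factor HNF1, searched on both strands.
Alb: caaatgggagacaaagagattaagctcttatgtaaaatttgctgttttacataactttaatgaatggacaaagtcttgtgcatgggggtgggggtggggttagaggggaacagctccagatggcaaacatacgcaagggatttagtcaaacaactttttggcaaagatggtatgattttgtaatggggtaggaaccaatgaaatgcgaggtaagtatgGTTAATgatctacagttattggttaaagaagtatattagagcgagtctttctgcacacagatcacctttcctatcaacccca
Afp: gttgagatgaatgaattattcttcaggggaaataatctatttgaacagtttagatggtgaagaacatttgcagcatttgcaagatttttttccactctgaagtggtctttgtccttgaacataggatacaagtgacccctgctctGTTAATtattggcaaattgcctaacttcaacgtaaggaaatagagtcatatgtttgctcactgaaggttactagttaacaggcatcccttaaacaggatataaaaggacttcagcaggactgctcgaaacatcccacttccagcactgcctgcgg
Each promoter held 1 copy, starting 32 bases before the start of Alb and 105 bases before that of Afp. The motif was in 2332 of 32851 RefSeq promoters of the same length (7.099%), so a match is a description of these letters and not a site.

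Fetal liver and tumor genes as a list were split by gene. Of 36 genes on the list 32 were detected and 12 reached the floor, with 3 higher and 7 lower in hKO and a median log2 ratio of −1.98. The lower genes included Spp1 and Ly6d, which also stand among the markers of other cell types above. Beside Afp and Akr1c18, the oncofetal proteoglycan gene Gpc3 was lower, with 5 UMIs in hKO and 105 in WT (log2 −5.14), of which 10 WT members held 74.3%. Tff3, the hyaluronan receptor Cd44 and the trypsin inhibitor Spink1 were the higher ones. The list did not keep its median in the shared cluster, where 6 of 11 were higher, 2 lower and the median was 2.02.

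Cytochromes P450, which oxidize drugs, steroids and fatty acids, were higher in hKO. Of 42 genes 41 were detected and 22 reached the floor, with 14 higher (63.6%), 1 lower and a median of 1.91. Cyp3a11, the main drug-oxidizing enzyme of mouse liver, had 3321 UMIs in hKO and 27 in WT, or 964.7 and 13.1 CPM (log2 6.20). Its hKO level was 1125, 1367, 1221, 1125 and 542.9 CPM from shallow to deep, while the WT classes ranged from 5.64 to 57.6 CPM. Cyp2f2, which oxidizes naphthalene and marks periportal hepatocytes, had 2674 and 32 UMIs (log2 5.64), and Cyp2a5 had 11571 and 320 (4.43). The 1 lower gene was Cyp2c68 (357 and 460 UMIs, log2 −1.11). The list kept its direction among deep members (12 of 21 higher, 2 lower, median 1.72), in the shared cluster (10 of 16 higher, 1 lower, median 1.93) and above the mitochondrial limit (18 of 24 higher, 2 lower, median 2.27). Cyp2e1, the ethanol-oxidizing enzyme of pericentral hepatocytes, was an exception: 202 UMIs in hKO and 33 in WT gave a log2 ratio of 1.87, but 158 of the hKO UMIs lay in the deepest class, and the ratio was −1.25 in the shared cluster and −0.67 at a mitochondrial limit of 10%.

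Genes that growth hormone or sex regulates in mouse liver were also higher. This list is not separate from the others: Cyp4a12a is in the P450 list as well, and Cyp7b1 in the bile acid list. Of 33 genes 28 were detected and 10 reached the floor, with 8 higher (80.0%), 0 lower and a median of 2.86; among deep members it was 8 of 9 with a median of 2.07, and in the shared cluster 5 of 8 with a median of 1.52. The male urinary pheromone carrier Mup20, a gene of the rule, had 60614 UMIs in hKO and 5718 in WT (log2 2.66). The male-dominant steroid hydroxylase Cyp2d9 had 2100 and 130 UMIs (3.27), the oxysterol hydroxylase Cyp7b1 208 and 11 (3.50), the complement component C6 225 and 2 (6.07), and the growth hormone receptor Ghr 1062 and 213 (1.57). Cyp2b9, a female-dominant P450, did not pass the rule (499 and 534 UMIs, log2 −0.84). Both libraries carried Y-linked transcripts and almost no Xist, as given above. Above the mitochondrial limit 8 of 13 were higher and 4 lower, with a median of 1.60.

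NRF2 targets, which supply glutathione and remove electrophiles and peroxides, were higher in hKO, with the highest of 4 medians in the shared cluster. All 40 genes were detected and 33 reached the floor, with 12 higher (36.4%), 3 lower and a median of 0.64. Cbr3, a carbonyl reductase, had 1329 UMIs in hKO and 14 in WT (log2 5.82), and the hKO level was 243.3, 271.5, 220.8, 237.6 and 626.6 CPM from shallow to deep. Slc7a11, which imports cystine for glutathione, had 729 and 52 UMIs (log2 3.06), and 48 of the WT UMIs lay in the deepest class. The glutathione transferases Gsta2 (4.26) and Gstm3 (3.09), the efflux pump Abcc4 (3.02) and the sulfiredoxin Srxn1 (1.98) were higher too. Nfe2l2, which encodes NRF2 itself, was lower (221 and 412 UMIs, log2 −1.64), as were Gsta4 and the glutathione synthetase Gss. In the shared cluster 24 of 36 were higher and 1 lower, with a median of 1.77; among deep members 17 of 35 were higher and 1 lower, with a median of 0.92; and above the mitochondrial limit 14 of 34 were higher and 1 lower, with a median of 0.89.

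Conjugation enzymes, which attach glucuronate, sulfate or glutathione to drugs and steroids, went both ways over all members. Of 25 at the floor 12 were higher (48.0%) and 9 lower, with a median of −0.04. Higher genes led in the other settings: 12 of 24 higher and 6 lower among deep members (median 0.78), 15 of 28 and 7 in the shared cluster (1.23), and 13 of 26 and 6 above the mitochondrial limit (1.62). Ugt2b1 and the glycosyltransferase Ugt3a2 (444 UMIs in hKO and 7 in WT, log2 5.24) were higher, and the sulfotransferase Sult2a2 was lower (18 and 176 UMIs, log2 −4.03). Bile acid synthesis and transport had 7 of 13 higher, 1 lower and a median of 1.69. The sinusoidal uptake carrier Slco1b2 had 424 UMIs in hKO and 21 in WT (log2 3.59), the bile acid conjugating enzyme Baat 296 and 40 (2.14), and the canalicular pump Abcb11 183 and 29 (1.91), while Nr0b2, the bile acid-induced repressor SHP, was lower (116 and 149, −1.11). The bile acid list had 6 of 10 higher and 1 lower in the shared cluster.

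Genes of lipid handling had no direction that held in every setting. The list of fatty acid binding and uptake had 5 genes of 14 higher (35.7%), 1 lower and a median of 0.20, led by the fatty acid translocase Cd36 (1242 UMIs in hKO and 59 in WT, log2 3.65), the bile acid and fatty acid ligase Slc27a5 (394 and 29, 3.02) and the lipoprotein lipase Lpl (1097 and 140, 2.22). Of 9 lipid droplet and lipolysis genes 2 were higher and 4 lower, although the median was 0.86. The lower ones were Abhd5, the activator of the lipase ATGL (42 and 284 UMIs, log2 −3.50), Hilpda, its inhibitor (25 and 127, −3.09), and the droplet coat proteins Plin2 (992 and 1971, −1.74) and Plin3 (−1.71). Above the mitochondrial limit the balance of both lists turned, with 3 of 16 uptake genes higher and 5 lower (median −0.64) and 4 of 8 droplet genes higher and 2 lower (median 1.04), and in the shared cluster it was 4 and 3 of 13 and 3 and 3 of 9. Lipogenesis had 2 of 14 in each direction (median 0.38), with the phosphatidate phosphatase Lpin1 at −3.26 and the acyltransferase Agpat2 at 1.88. Fatty acid oxidation and ketogenesis had 4 of 26 higher and 7 lower (median −0.72), with the fasting hormone Fgf21 at 4.77 (1004 and 22 UMIs) and Pdk4, a brake on pyruvate oxidation, at −2.23. Pdk4 was at 1.75 in the shared cluster. Cholesterol synthesis had 1 of 9 higher, the squalene epoxidase Sqle (2.07), and 2 lower (median −0.47).

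Secreted proteins outside the rule were on balance higher. Of 55 plasma protein genes at the floor 18 were higher (32.7%), 7 lower and the median was 0.50. The cortisol-binding globulin Serpina6 had 695 UMIs in hKO and 27 in WT (log2 3.94) and the complement component C9 592 and 37 (3.26), while the clotting factor F11 was lower (23 and 121, −3.14). This balance was not seen among deep members, with 9 of 53 higher, 14 lower and a median of −0.13. Acute phase genes, induced in hepatocytes by interleukin 6 and related cytokines, had 8 of 21 higher (38.1%), 4 lower and a median of −0.17. Orm2, an orosomucoid, had 1377 UMIs in hKO and 3 in WT (log2 8.10, 6.55 to 10.4), and its hKO level was 372.6, 547.0, 467.3, 596.9 and 226.5 CPM from shallow to deep. Saa1, serum amyloid A, had 638 and 7 UMIs (log2 5.76), Orm1 3848 and 298 (2.95), and the iron hormone Hamp 1594 and 249 (1.93), but the related serpin Serpina3n was lower (386 and 787, −1.77). After thinning, an Orm2 UMI was seen in 29.6% of hKO and 0.538% of WT members, against 2.48% of hKO T barcodes.

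Promoters of Orm2 and Saa1 are shown because these acute phase genes had the largest ratios of the list. They come from the same RefSeq table, at chr4:63362199-63362498 on the plus strand and chr7:46742931-46743230 on the minus strand of GRCm38.p6, and capitals mark TTGCNCAA, a core of the site of C/EBP factors.
Orm2: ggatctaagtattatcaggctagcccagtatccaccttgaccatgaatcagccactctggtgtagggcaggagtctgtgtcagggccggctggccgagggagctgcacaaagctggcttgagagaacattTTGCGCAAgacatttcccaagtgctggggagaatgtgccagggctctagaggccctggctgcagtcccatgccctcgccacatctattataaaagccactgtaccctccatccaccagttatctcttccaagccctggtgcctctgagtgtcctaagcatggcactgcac
Saa1: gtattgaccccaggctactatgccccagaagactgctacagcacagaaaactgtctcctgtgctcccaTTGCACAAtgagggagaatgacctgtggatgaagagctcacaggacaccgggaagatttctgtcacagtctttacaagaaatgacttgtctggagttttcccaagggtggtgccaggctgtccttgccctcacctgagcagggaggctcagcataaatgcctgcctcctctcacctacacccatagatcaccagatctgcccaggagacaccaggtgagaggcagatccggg
The match starts 120 bases before the start of Orm2 and 182 bases before that of Saa1. It was found on either strand in 2.94% of the 32851 promoters (966). Cebpb, which encodes one of these factors, was lower in hKO (478 and 608 UMIs, log2 −1.09).

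Metabolic genes of the periportal zone and hepatocyte transcription factors were more often lower over all members, but periportal and urea cycle genes were not so in the deepest class. Urea cycle and amino acid catabolism had 3 of 29 higher and 13 lower (44.8%), with a median of −0.57, near the median of all genes. Cps1, which starts the urea cycle, had 287 UMIs in hKO and 1121 in WT (log2 −2.71), Ass1 233 and 953 (−2.78), and Agxt was given above, while the betaine methyltransferase Bhmt (849 and 126, 2.01) and the pyrimidine-degrading Dpys (2.53) were higher. In the shared cluster 11 of 32 were lower and 3 higher, against 17.2% and 15.1% of all genes there, and among deep members 8 of 27 were lower and 6 higher (median 0.17). Periportal genes had 4 of 22 higher and 11 lower, with a median of −0.98, and the higher ones included Cyp2f2, the glucose-releasing G6pc (300 and 5 UMIs, 5.16) and the immunoglobulin transporter Pigr (1125 and 24, 4.81). Among deep members 8 of 22 periportal genes were higher and 7 lower (median −0.02). Pericentral genes had 3 of 6 higher and 1 lower (median 1.18), but 2 of 8 higher and 4 lower in the shared cluster (median −0.37) and 3 of 9 higher and 5 lower above the mitochondrial limit (median −1.003). The lower one, the lactonase Rgn, had 51 and 171 UMIs (log2 −2.49) but was higher in the deepest class (3.38). Of 20 transcription factor genes 10 were lower and 1 higher, with a median of −0.93, against 32.6% lower and 13.0% higher among all genes. Hnf4a was at −2.14, Prox1 at −2.12, the glucocorticoid-induced Klf9 at −2.26, and Esr1, the estrogen receptor, at 2.11. In the shared cluster Hnf4a was at −0.20 and Prox1 at 0.17, and the list had 4 lower and 4 higher of 20.

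Stress and signaling lists were mixed. Of all genes, 13.0% were higher and 32.6% lower over all members. Those shares were 13.5% and 30.5% among deep members, and 15.1% and 17.2% in the shared cluster. Heat shock and dissociation stress genes had 2 of 22 higher and 11 lower, with a median of −1.12; the chaperone Hspa1b was higher (210 UMIs in hKO and 15 in WT, log2 3.06) and the early-response gene Btg2 lower (168 and 695, −2.79). Neither direction led in the shared cluster, with 3 of 15 each, while among deep members 4 of 21 were higher and 12 lower (median −1.71). Unfolded protein response genes had 1 of 16 higher and 2 lower (median 0.12), glycolysis and hypoxia genes 2 of 12 higher and 1 lower (median −0.09), led by Ndrg1 (334 and 5 UMIs, log2 5.32), and gluconeogenesis and glycogen genes 2 of 10 higher and 4 lower (median 0.02). Among deep members, 5 of 14 glycolysis and hypoxia genes were higher and 0 lower (median 0.67), and 6 of 11 gluconeogenesis and glycogen genes higher and 3 lower (median 1.07). Above the mitochondrial limit 1 of 11 gluconeogenesis and glycogen genes was higher and 5 lower (median −0.78). For glycolysis and hypoxia it was 2 of 13 higher and 1 lower there (median 0.09). Of all genes there, 12.8% were higher and 33.0% lower. Unfolded protein response genes had 0 of 16 higher and 4 lower among deep members (median −0.63). Above the limit 5 of 17 of them were higher and 1 lower (median 0.67). Among ferroptosis regulators 5 of 18 were higher and 3 lower (median 0.16), with Slc7a11 and the iron exporter Slc40a1 (2.19) among the higher ones. Iron, copper and metal handling had 4 of 15 higher and 3 lower (median −0.49), MHC class I presentation 2 of 15 higher and 3 lower (median −0.21), interferon response 4 of 10 higher and 2 lower (median 0.46) and cell cycle 0 of 4 higher and 1 lower (median −0.25), against 4 of 8 higher and 0 lower in the shared cluster (median 1.03). The interferon gene Ifi27 was lower (281 and 1619 UMIs, −3.27) and the peptide-loading gene Tapbp higher (489 and 64, 2.19).

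**Figure D5:**
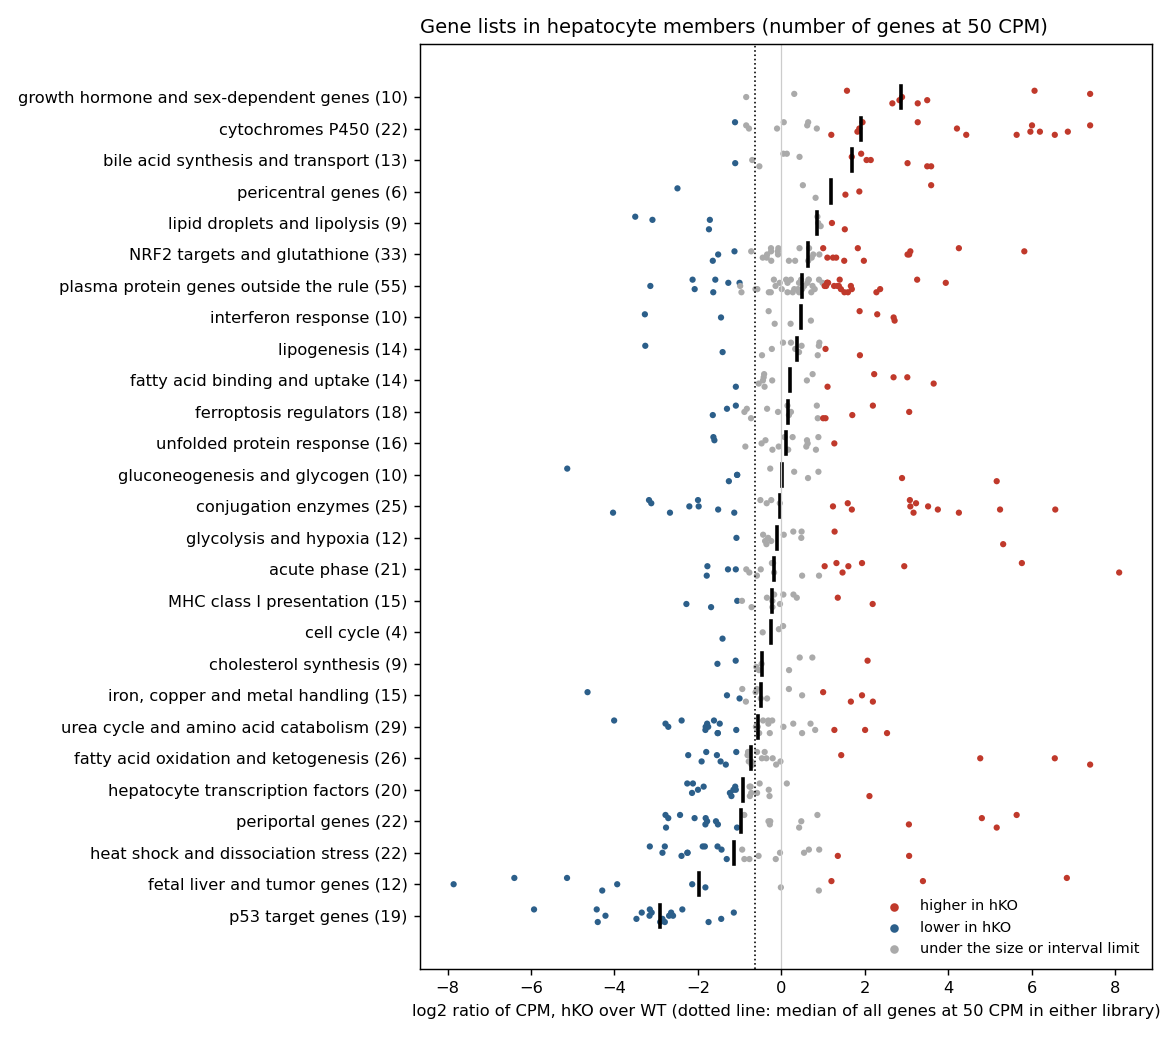
Log2 ratio of CPM, hKO over WT (x axis), of each gene at 50 CPM or more in either library (points) in 27 gene lists (rows, with their numbers of such genes), with the list median as a black bar and the median of all genes, −0.63, dotted; red points are higher and blue points lower in hKO by the rule of size, grey points neither. Lists of sex-dependent genes, P450s and bile acid genes have medians of 2.86, 1.91 and 1.69, and the fetal liver and tumor list and the p53 target list have medians of −1.98 and −2.90.

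Hepatocyte barcodes above the mitochondrial limit met all other criteria of the rule and came from the same libraries and tumor pools. They had the same direction for each of the 24 named genes. Those genes were picked for large ratios over the members of these libraries, so this is a description and no separate check. Levels there are CPM of non-mitochondrial UMIs, of which hKO had 3152125 and WT 227051. Of 3689 genes at the floor 12.8% were higher in hKO and 33.0% lower, with a median of −0.57. Of the 457 genes higher among members, 279 were higher there too (61.1%, and 59.1% of those higher there), and of the 1149 lower ones 614 were lower (53.4%, and 50.5%). Fabp5 stood at 14.6 CPM in hKO (10.7 to 19.5) and 57.3 CPM in WT (30.5 to 97.9) there, a log2 ratio of −1.97 (−2.88 to −0.96), beside −1.71 in the shared cluster. Transcription factors had 10 of 20 lower and 2 higher, while the fetal liver and tumor list had 3 of 12 higher, 4 lower and a median of 0.24, and acute phase genes 9 of 23 higher, 4 lower and a median of 0.88.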

How the data were processed

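The authors deposited UMI counts for each gene in each barcode with no normalization, written by Cell Ranger 7.1.0 per the file headers. The submitters' processing notes name build mm9 and, as tools, Seurat 3, R 3.0 and Cell Ranger. The other columns, names of genes and barcodes, were deposited as row and column names. Every barcode had at least 500 UMIs, so the files hold called cells. There were 68010317 UMIs in hKO and 58772330 in WT.

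The members, the 27 gene lists (731 genes, 5 without a feature) and the alternatives were chosen with earlier results of these data known, and the p53 list after values were seen. UMIs were summed over members per library and scaled to CPM of all their UMIs. Log2 ratios divide hKO by WT and carry an exact conditional binomial 95% interval, CPM a Poisson and shares a Clopper-Pearson interval, which cover counting error alone. For ratios, 0 UMIs became 3 UMIs, and no ratio is given where both libraries had 3 or fewer. Cells are not replicates, so no p-value was computed. The computation of ratios and intervals was tried on simulated sums with known ratios. These sums were drawn from the WT profile with counting error alone. They held no differences in depth, cell mixture or library, so they say nothing about such effects.

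Named genes are the 12 highest and 12 lowest ratios past the rule of size with 1 direction in all 5 depth classes, without mitochondrial, ribosomal, hemoglobin, immunoglobulin, T cell receptor and numbered genes and genes more abundant outside the members; all Fabp genes; the 5 markers; and up to 4 genes per list with the largest ratios. Other genes of a list are named as examples chosen after their values were seen. Some genes stand in several lists, such as Cyp4a12a, Slc7a11 and Gsta2, so counts of different lists are not separate results.

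Clustering used scanpy 1.11.5 (counts per 10000, log1p, 2000 variable genes, 30 components, 15 neighbors, Leiden resolution 0.5, seed 1). Doublets were kept. Scrublet's own threshold called 0.0175% in hKO, too few to have worked, and 4.00% in WT; removal at the expected rate, 0.008 per 1000 barcodes, took 88 hKO and 3 WT members and is an alternative. Python 3.11.15, numpy 2.4.6, scipy 1.17.1 and pandas 2.3.3 were used. Promoters are from RefSeq (GRCm38.p6), and no other coordinates are given.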

Additional observations from a re-analysis of the deposited data

How the results depend on the processing

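No paired analysis was possible because each group is 1 library and no result comes from a test. The members' share of barcodes had a log2 ratio of 1.72. It was 0.063 at a mitochondrial limit of 10% (111 hKO and 125 WT members), 2.49 at a minimum of 10% hepatocyte-gene UMIs, 0.53 at a minimum of 5000 UMIs and 4.71 with markers of other cell types at most 0.1% of UMIs, which left 182 hKO and 6 WT members. Alternatives chosen after the data were seen gave 3.29 with Ly6d, Spp1 and Sox9 left out of those markers and 1.44 without clusters led by other cell types. Genes higher in hKO numbered 754 with abundant kinds left out of the total, 840 at a floor of 20 CPM and 1803 with no floor. Genes lower in hKO numbered 710 at the limit on other markers, 506 in the shared cluster alone, 734 with ratios shifted to a median of 0, 2052 at 20 CPM and 3237 with no floor. The Fabp5 log2 ratio was −0.64 at 5000 UMIs, −2.23 at the limit on other markers, −3.05 with each barcode weighted equally, and 0.027 with Ly6d, Spp1 and Sox9 left out of those markers. The cause of these moves was not tested, and the limit on other markers leaves few WT members. In both its forms that limit also counts hemoglobin genes, which were more abundant in WT members.

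Single genes turned under some settings. Cyp2e1 was at −0.67 at the 10% limit, −1.25 in the shared cluster and −0.46 with equal weights. At the limit on other markers the log2 ratios were −0.23 for Ggt1, 0.99 for Lpin2, −1.82 for Fads2, −0.44 for Hamp, −0.47 for Hspa1b, 1.03 for Nlrc5, −0.56 for Ifi27l2a, −3.29 for Cxcl10 and 2.57 for Stmn1, and Rgn was at 0.46 with Ly6d, Spp1 and Sox9 left out of that limit. In the shared cluster they were 0.27 for Lpin2, −1.10 for Fads2, 1.75 for Pdk4, −0.035 for C8a, 0.17 for Prox1, 0.75 for Mdm2, 0.15 for Pcx, −0.14 for Cxcl10 and 1.17 for Stmn1. Depth limits the shallow classes most, the lowest of which holds 73589 WT UMIs in all.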

Other observations

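Genes activated by p53, the transcription factor that answers DNA damage and other stress, were lower in the hKO members. This list was drawn up after values of some of its genes had been seen, so its count supports nothing beyond a description. Of 26 genes 19 reached the floor of 50 CPM, and 19 of 19 were lower in hKO, with a median log2 ratio of −2.90, against 32.6% lower among all genes and a median of −0.63. Psrc1 had 6 UMIs in hKO and 218 in WT (log2 −5.93), the growth inhibitor Phlda3 38 and 479 (−4.40), the cell cycle inhibitor Cdkn1a 318 and 1368 (−2.85), the p53-degrading ligase Mdm2 107 and 568 (−3.15) and the death effector Bax 284 and 1025 (−2.60). Among members of at least 10000 UMIs it was 19 of 19 with a median of −2.97, in the shared cluster 5 of 8 with a median of −1.27 and 0 higher, and above the mitochondrial limit 7 of 11 with 1 higher and a median of −1.19. Mdm2 was at 0.75 in the shared cluster, and Gdf15 was at 2.75 there. Part of these ratios may follow depth, since 1287 of the 1368 WT Cdkn1a UMIs lay in the deepest class, which was not tested.

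Cdkn2a, a tumor suppressor locus that marks senescent cells, had 3 UMIs in hKO members and 681 in WT members, of which 662 lay in the deepest WT class and 49.3% in 10 members. The deepest hKO class had 0 UMIs, a log2 ratio of −7.49 with hKO set to a floor of 3 UMIs (upper limit −7.19). After thinning, 0.133% of hKO members (1 of 754) and 10.8% of WT members (20 of 186) had a UMI, against 1.35% of hKO and 1.39% of WT T barcodes.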
